A study of Bos taurus with 30 samples.

Results

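Inner cell masses (ICM) of bovine blastocysts were compared with bovine embryonic stem cells (ESC) by their lists of ATAC-seq peaks. The libraries were chosen by their labelled stage among those without α-amanitin, which gave 3 ICM and 3 ESC libraries, 6 of the 30 in the series. The study followed open chromatin from GV oocytes through 2-, 4- and 8-cell embryos and morula to ICM, and added ESC and embryos whose transcription had been blocked. ATAC-seq finds accessible DNA by cutting it with a transposase that leaves a tag, and a peak marks where tags of 1 library are denser than its local background.

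The ICM came from embryos that were produced in vitro with semen of a Holstein bull and cultured at 38.5 °C until 7 days post-insemination. Immunosurgery with 20% anti-bovine serum and guinea pig complement removed the outer cells of the blastocyst, and each of the 3 libraries was made from a pool of its own collection. The ESC were CTFR-bESC lines, derived from ICM under inhibition of the Wnt pathway and grown at 37 °C with 20 ng/mL FGF2, 2.5 µM of the Wnt inhibitor IWR-1, 100 U/mL penicillin and 100 µg/mL streptomycin. They grew on irradiated mouse embryonic fibroblasts, from which they were separated before lysis by plating in medium with a ROCK inhibitor. The share of fibroblasts left was not measured here. Per the paper, each ESC library used a set number of cells, far above the minimum it gives for pools of oocytes or embryos. The labels give no sex or genotype for either group and do not say which line or culture each ESC library came from, so the spread among ESC libraries may be technical in part. No labelled marker of either cell type could be checked in the lists, since positions of genes on the assembly of the files, ARS-UCD1.2, were not used here.

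The ICM holds the cells that go on to form the body of the embryo, together with precursors of the yolk sac, and its pluripotent state is brief. ESC keep a pluripotent state in culture for as long as growth factors and inhibitors hold it, and lines grown with FGF2 and a Wnt inhibitor are usually placed near the later, primed epiblast. Open sites include promoters, many of which are open in most cell types, and enhancers, which differ more between cell types and stages.

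The ICM lists held 84773, 93484 and 116791 peaks in replicates 1, 2 and 3, and the ESC lists 39333, 142643 and 99432. These peaks covered 42.8, 45.4 and 65.2 Mb in ICM and 15.1, 73.0 and 46.3 Mb in ESC. The ESC lists thus lay on both sides of the ICM lists, with ESC replicate 1 the shortest and ESC replicate 2 the longest of the 6. A background level, the density of tags expected outside peaks, which grows with the depth of sequencing, was 0.493, 0.439 and 1.06 in ICM and 0.175, 0.657 and 0.404 in ESC. ESC replicate 1 therefore had the fewest tags, and ESC replicate 2 had 3.75 times its level. Covered length in ESC was 0.876 times that in ICM (exact two-sided permutation test, p = 0.9) and the number of peaks 0.954 times (same exact test, p = 1), and both ratios rose above 1 without ESC replicate 1, to 1.17 and 1.23, or without ICM replicate 3, to 1.01 and 1.05. With 3 libraries against 3, an exact permutation test cannot go below p = 0.1, and a larger p does not show that values did not differ. Since separate ESC cultures are not documented, these p-values measure only the spread between the 6 libraries.

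**Figure D1:**
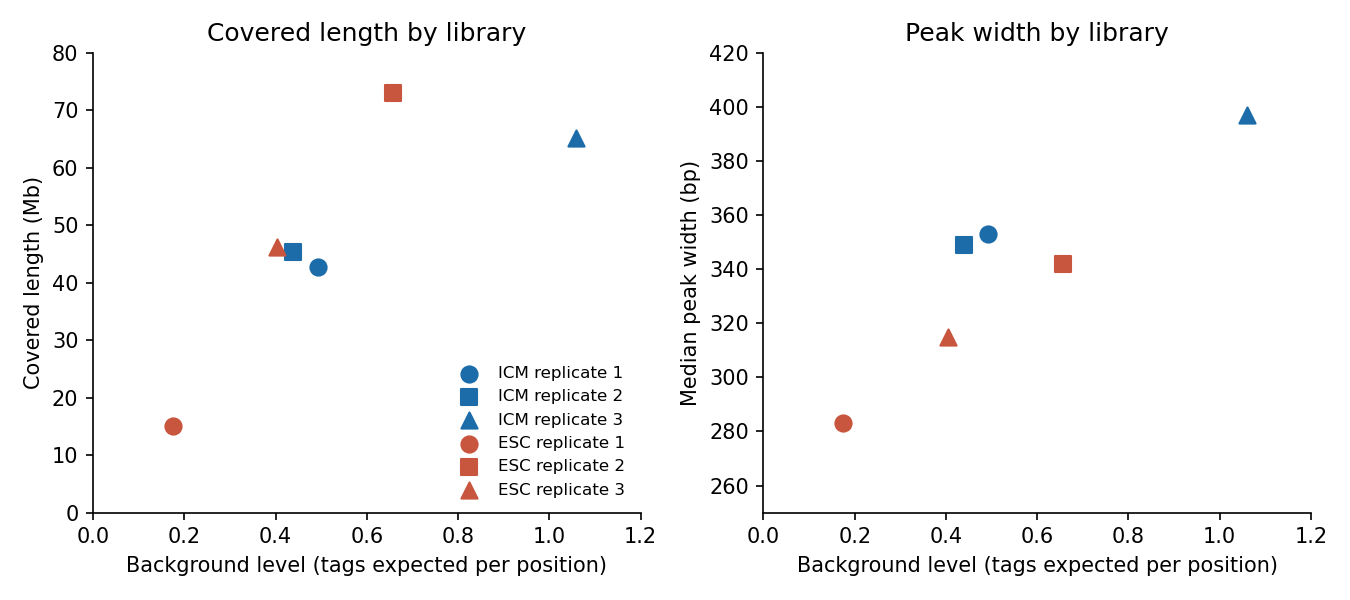
Covered length in Mb (left) and median peak width in bp (right) of the 3 ICM and 3 ESC libraries, each a point, against the background level of the library. ESC replicate 1 has the lowest level, 0.175, and the shortest list, 15.1 Mb, and ESC peaks are narrower than ICM peaks, the widest ESC median being 342 bp and the narrowest ICM median 349 bp.

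Peaks of ESC were narrower in the full lists. The median width was 353, 349 and 397 bp in ICM and 283, 342 and 315 bp in ESC, so that the groups did not overlap (ratio 0.855, exact permutation test, p = 0.1, the smallest possible). When each list was reduced to its 39333 top peaks the groups overlapped (ratio 0.824, exact permutation test, p = 0.3). The gap between the nearest libraries was small, from 342 bp in ESC replicate 2 to 349 bp in ICM replicate 2. Of this pair ESC replicate 2 had the higher background level. The lowest level, in ESC replicate 1, went with the narrowest median, and the highest, in ICM replicate 3, with the widest. Whether depth set the widths was not tested. Peaks of over 1000 bp made up 10.5%, 9.03% and 13.4% of the ICM lists and 4.05%, 11.3% and 8.33% of the ESC lists, which overlapped.

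The height of the peaks did not separate the groups. Median fold enrichment, the tags over the local background averaged over a peak, was 4.38, 3.88 and 4.00 in ICM and 4.33, 4.13 and 3.89 in ESC (ratio 1.01, exact permutation test, p = 0.9). The ratio fell below 1 without ESC replicate 1 (0.983), ICM replicate 2 (0.983) or ICM replicate 3 (0.998). The median −log10 q was 3.68, 2.62 and 3.79 in ICM and 3.07, 3.34 and 2.62 in ESC (ratio 0.894, exact permutation test, p = 0.4), and the median −log10 p was 5.94, 4.85 and 5.86 against 5.72, 5.37 and 4.82. For each of these 3 measures the ICM and ESC values were interleaved.

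Lists of the same group were more alike than lists of different groups. The Jaccard index, which divides the length that a pair of lists have in common by the length covered in either, lay between 0.368 and 0.388 for the 3 pairs of ICM libraries and at 0.179, 0.241 and 0.351 for the pairs of ESC libraries. Between an ICM and an ESC library it lay between 0.118 and 0.191, so that only the pair of ESC replicates 1 and 2, at 0.179, fell within the range between groups. The mean within groups exceeded that between groups by 0.154 (exact permutation test over the relabellings of the 6 libraries, p = 0.1, the smallest possible). The overlap coefficient, which divides the shared length by the shorter list, put ESC replicates 1 and 2 at 0.884, above every other pair of the 6 libraries, so that the short list lay largely within the long one.

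Against the earlier stages, ICM lists were closer by the Jaccard index to those of morula and 8-cell embryos than ESC lists were. With the 3 morula libraries, the mean Jaccard index was 0.263 ± 0.0208 for ICM and 0.130 ± 0.0406 for ESC libraries (SD, n = 3), and with 8-cell libraries 0.172 ± 0.00922 and 0.110 ± 0.0263, and in both cases the groups did not overlap (exact permutation test, p = 0.1 for each). With GV oocytes the means were 0.154 ± 0.0171 and 0.153 ± 0.0195 (exact permutation test, p = 1). The groups also overlapped with 2-cell embryos, at 0.0126 ± 0.00177 and 0.0147 ± 0.00763 (exact permutation test, p = 0.9), and with 4-cell embryos, at 0.0994 ± 0.0123 and 0.103 ± 0.0225 (exact permutation test, p = 0.8). By the overlap coefficient the ICM and ESC libraries overlapped in their means with morula, at 0.613 ± 0.0795 and 0.428 ± 0.124 (exact permutation test, p = 0.2), and with 8-cell embryos, at 0.377 ± 0.0469 and 0.329 ± 0.113 (p = 0.5, same exact test). By this index they were apart only with the short lists of 2-cell embryos, at 0.593 ± 0.0351 and 0.484 ± 0.107 (exact permutation test, p = 0.1). ICM and morula are both pools of embryos made in vitro while ESC are cultured cells, and an effect of the material cannot be told apart from that of the stage.

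**Figure D2:**
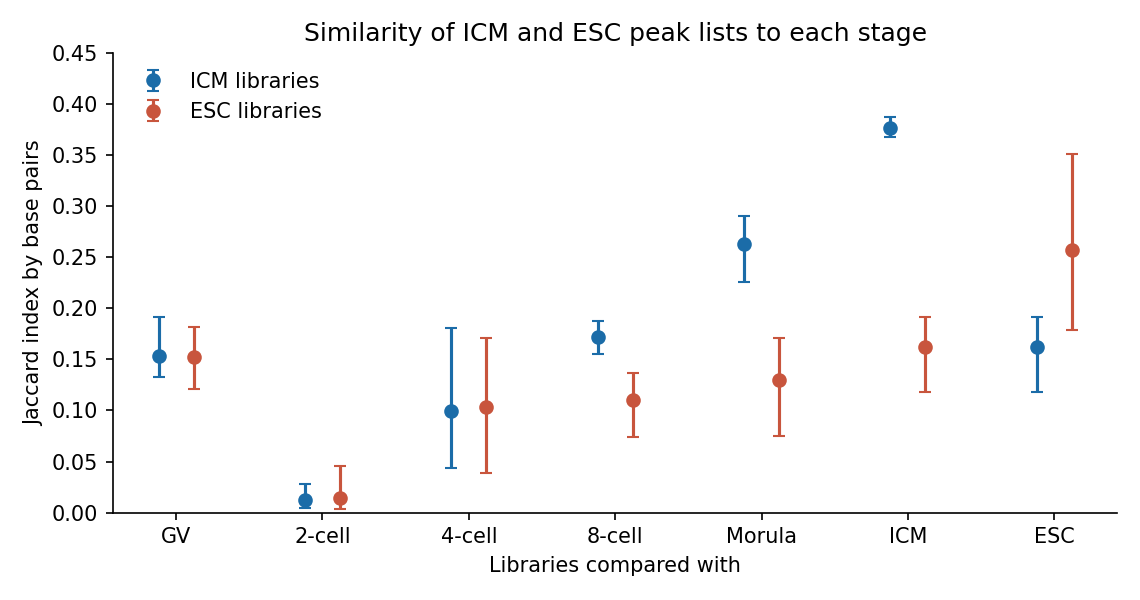
Mean Jaccard index by base pairs of the ICM and of the ESC libraries with the libraries of each stage (vertical axis), with bars from the lowest to the highest pair. ICM lists are closer than ESC lists to morula, 0.263 against 0.130, and both are equally close to GV oocytes, 0.154 and 0.153.

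For each group, overlapping peaks of the 3 replicates were joined, and a region is such a joined stretch to which 2 or more replicates contributed. Of 84396 ICM regions, 33944 (40.2%) shared at least 1 bp with an ESC region and are called kept, and 50452 (59.8%) are called lost. Of 78943 ESC regions, 45047 (57.1%) met no ICM region and are called added. Under this rule more than 50% of the regions of either group thus had no counterpart in the other, but for ESC this did not hold without ESC replicate 2 or 3, where 58.9% and 56.7% of ESC regions were kept. Of the lost regions 78.1% had a peak in 0 of 3 ESC libraries, 21.6% in 1 and 0.277% in 2, and of the added regions 80.1% had a peak in 0 of 3 ICM libraries, 19.6% in 1 and 0.289% in 2. The share of ICM regions kept was 23.7% without ESC replicate 2 and 24.8% without ESC replicate 3, since an ESC region then needed a peak in the short list of ESC replicate 1. For the same reason the number of added regions was 13952 and 15937 without these libraries, and the number of kept regions 19981 and 20913. Without ICM replicate 3 there were 30662 lost regions.

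To see how many ICM regions a further ICM library would miss, each ICM library was held out in turn and regions were taken from the other 2. The held-out libraries lacked a peak at 21.2%, 19.6% and 6.78% of them for replicates 1, 2 and 3. ESC replicates 1, 2 and 3 lacked one at 70.9%, 46.6% and 53.8% (means over the 3 hold-outs). Every ESC library, also the longest list of the 6 libraries compared, missed more ICM regions than any ICM library, by 41.2 percentage points on average (exact permutation test, p = 0.1, the smallest possible).

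The same comparison from the side of ESC was less clear. Held-out ESC replicates 1, 2 and 3 lacked 55.4%, 1.61% and 8.98% of the regions of the other 2 ESC libraries. ICM replicates 1, 2 and 3 lacked 49.6%, 49.7% and 42.5%. ESC replicate 1 missed as many ESC regions as the ICM libraries did, so the groups overlapped (difference of 25.3 points, exact permutation test, p = 0.4). The difference was 31.7 points without ESC replicate 1 (exact permutation test, p = 0.1) and 16.2 points without ESC replicate 2 (p = 0.6, same exact test). With equal numbers of top peaks it was 36.7 points, and the groups did not overlap (exact permutation test, p = 0.1). The regions differ with the library held out: those for ESC replicates 2 and 3 needed a peak in the short list of ESC replicate 1 and numbered 33925 and 36786, against 75083 for ESC replicate 1.

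Kept, lost and added regions differed in how they had been open before. Peaks of the earlier stages were not used to sort them, and each library of a stage gives a value. Libraries of GV oocytes had a peak at 51.0 ± 2.01% of the kept regions, 4-cell libraries at 34.7 ± 17.2%, 8-cell libraries at 71.6 ± 2.77% and morula libraries at 90.4 ± 5.13% (SD, n = 3 libraries). In the same order these libraries had a peak at 8.58 ± 0.279%, 5.19 ± 3.47%, 37.7 ± 3.24% and 73.8 ± 8.37% of the lost regions, and at 6.82 ± 0.222%, 3.61 ± 2.52%, 14.8 ± 1.98% and 25.8 ± 8.59% of the added regions. Each of these 12 libraries put the classes in the same order, kept above lost above added. In the mean of GV oocytes the order of lost and added regions turned without ICM replicate 1, to 8.25% of lost and 9.41% of added regions, and without ICM replicate 3, to 8.89% and 9.79%. In the mean of 4-cell libraries it also turned without ICM replicate 1, to 5.03% of lost and 5.12% of added regions. Without ICM replicate 3 the 4-cell means were close, at 5.43% of lost and 5.38% of added regions. Kept regions thus met peaks of oocytes far more often than the others, and lost regions met peaks of morula more often than those of oocytes. Lists of GV oocytes held 40132 to 44678 peaks and those of morula 142231 to 207459, so shares of different stages can also differ with list length. The median width was 748 bp for kept, 521 bp for lost and 436 bp for added regions, and wider regions meet a peak more easily. How far width set the order of the classes was not tested. Without ESC replicate 2 or 3, where fewer regions count as kept, oocyte libraries had a peak at 14.4% or 14.3% and 4-cell libraries at 8.83% or 8.77% of the lost regions.

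**Figure D3:**
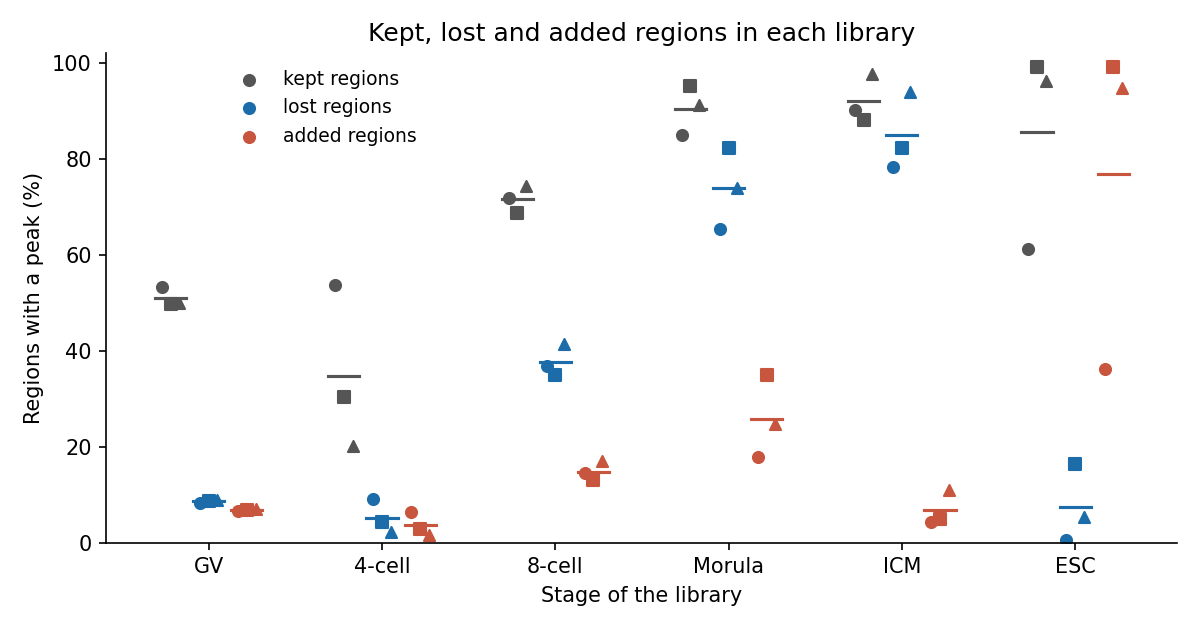
Percentage of the kept, lost and added regions with a peak (vertical axis) in each library of GV oocytes, 4-cell and 8-cell embryos, morula, ICM and ESC (circles, squares and triangles for replicates 1, 2 and 3, lines for means). Kept regions are at 51.0% in GV oocytes on average, against 8.58% for lost and 6.82% for added regions; values in ICM and ESC libraries follow from how the classes were made.

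Most added regions had no counterpart at earlier stages. A region of GV oocytes, 2-, 4- or 8-cell embryos or morula met 14617 (32.4%) of the added regions, and 30430 (67.6%) met none. Among lost regions 11067 (21.9%) met none of these stages, and among kept regions 2052 (6.05%). A morula region met 25.8% of the added regions, so that these sites had a region in morula, none in ICM and again one in ESC.

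Retention in ESC also varied with the stage at which an ICM region was first open, a sorting chosen after the data had been seen. Each ICM region was assigned to the earliest embryonic stage with an overlapping region, from the 2-cell stage to morula, or to ICM where there was none. Lists of the 2- and 4-cell stages are short, with 1002 to 6440 and 14355 to 42012 peaks, against 125253 to 156569 at the 8-cell stage, so that first open means first found in a list, and a site may have been missed before. ESC kept 512 of 632 (81.0%) regions first open at the 2-cell stage, 10300 of 11665 (88.3%) from the 4-cell stage, 14137 of 31775 (44.5%) from the 8-cell stage, 6722 of 26600 (25.3%) from morula and 2273 of 13724 (16.6%) first open in ICM. Each ESC library gave a similar fall: 91.4%, 54.8%, 36.2% and 26.6% from the 4-cell class to the ICM class in replicate 2, 89.3%, 46.0%, 27.2% and 18.7% in replicate 3, and 68.2%, 26.1%, 12.4% and 7.61% in replicate 1. From the 4-cell class on, the later a region was first found, the smaller was the share that each of the 3 ESC libraries held. Without ESC replicate 2 the shares kept were 67.9%, 67.8%, 24.2%, 11.3% and 6.85% from the 2-cell to the ICM class. With regions required in all 3 replicates they were 15.4% for the morula class and 10.8% for the ICM class.

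ICM libraries also missed late regions more often, but by less. In the hold-outs, an ICM library had a peak at 95.9 ± 3.40% of the regions first open at the 4-cell stage and ESC libraries at 85.3 ± 11.9% (SD, n = 3), which overlapped (exact permutation test, p = 0.2). For regions from the 8-cell stage these values were 87.0 ± 5.98% and 44.7 ± 14.5%, and for regions from morula 82.7 ± 7.50% and 25.5 ± 11.7%, with no overlap (exact permutation test, p = 0.1 for each). For regions first open in ICM they were 63.0 ± 21.1% and 18.3 ± 9.74%, with the ICM libraries at 43.1%, 60.8% and 85.0% and the ESC libraries at 8.01%, 27.4% and 19.5% (exact permutation test, p = 0.1). For the 632 regions of the 2-cell class they were 96.8 ± 1.66% and 81.4 ± 8.57%, with no overlap (exact permutation test, p = 0.1). The gap between ICM and ESC libraries was 15.4 percentage points for the 2-cell class, 10.6 for the 4-cell class, 42.4 for the 8-cell class, 57.2 for the morula class and 44.7 for the ICM class.

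**Figure D4:**
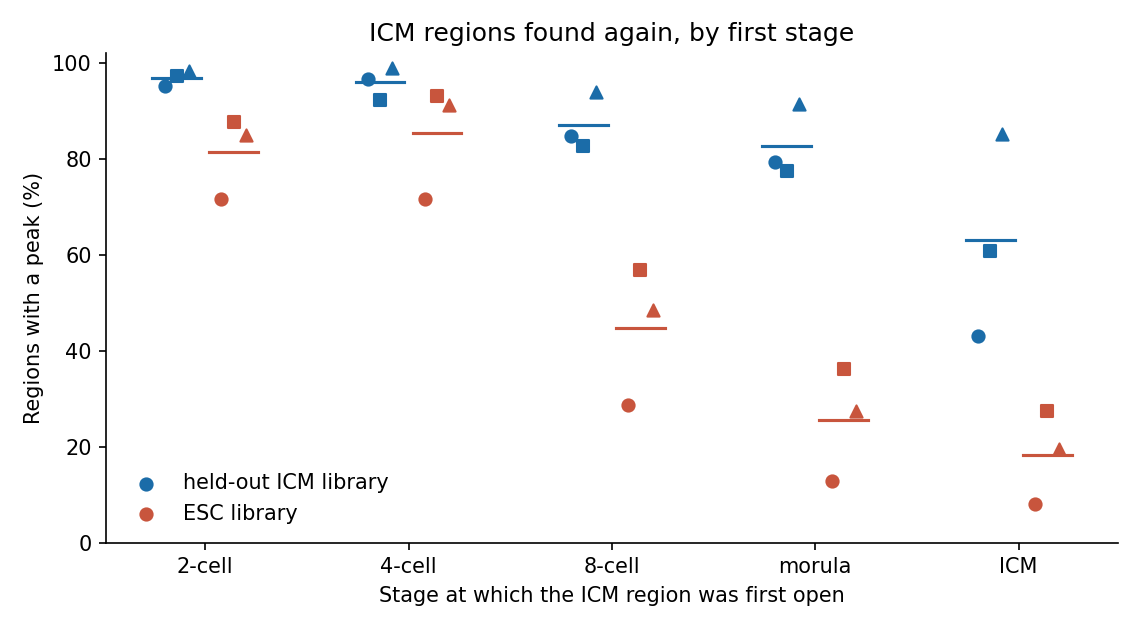
Percentage of ICM regions with a peak in a held-out ICM library or in an ESC library (vertical axis), by the stage at which the region was first open; circles, squares and triangles are replicates 1, 2 and 3 and lines are means. The means of the ESC libraries fall from 85.3% in the 4-cell class to 18.3% in the ICM class, and those of held-out ICM libraries from 95.9% to 63.0%.

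Within each of these classes, regions also open in GV oocytes were kept more often. ESC kept 17274 of 21035 (82.1%) ICM regions that met a region of GV oocytes and 16670 of 63361 (26.3%) of the others, a share that was 11.9% without ESC replicate 2, 13.1% without ESC replicate 3 and 16.9% with regions required in all 3 replicates. Within the 8-cell class the shares were 78.6% of 8087 and 32.8% of 23688 regions, within the morula class 53.6% of 1731 and 23.3% of 24869, and among regions first open in ICM 36.5% of 605 and 15.6% of 13119. In the 4-cell class they were 92.6% of 10007 and 62.5% of 1658. Held-out ICM libraries had a peak at 93.9 ± 4.85% of the regions open in oocytes and ESC libraries at 79.8 ± 13.8% (SD, n = 3; exact permutation test, p = 0.2), while the values for the other regions were 80.2 ± 9.52% and 27.5 ± 12.1% (exact permutation test, p = 0.1).

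Kept regions were also the stronger ones. Where a library had a peak, the median fold enrichment in ICM replicates 1, 2 and 3 was 4.87, 4.51 and 4.81 at kept regions and 4.37, 4.04 and 4.24 at lost regions. In ESC replicates 1, 2 and 3 it was 4.54, 5.05 and 4.65 at kept regions and 4.21, 4.63 and 3.97 at added regions. In each of the 6 libraries kept regions were thus higher than the regions of 1 group alone. The median −log10 q went the same way, at 4.97, 3.92 and 6.72 against 3.62, 2.88 and 4.35 in ICM and at 3.35, 5.96 and 4.19 against 2.91, 4.26 and 2.70 in ESC. They were wider too, with a median of 748 bp against 521 bp for lost and 436 bp for added regions. Regions counted as kept from 1 bp shared, which wider regions meet more easily, and how far this rule set the widths was not tested.

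With ICM regions put into 5 equal groups by mean fold enrichment, the share kept rose from 27.5% in the lowest to 57.1% in the highest. Within each of these groups the order of the classes by first stage held from the 4-cell class on. In the highest group ESC kept 94.9% of regions from the 4-cell stage, 52.0% from the 8-cell stage, 29.1% from morula and 23.1% first open in ICM. In the lowest group these shares were 69.7%, 35.6%, 21.6% and 15.6%. The 2-cell class was kept less often than the 4-cell class in all of these groups but the lowest, with 85.8% against 94.9% in the highest. Over all strengths the order was 81.0% against 88.3%, and on autosomes only it turned to 93.8% against 88.9%. With regions from any replicate it also turned, to 82.0% against 77.2%, and without ESC replicate 2 the shares were nearly equal, at 67.9% and 67.8%.

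Equal numbers of the highest peaks of each library were then set against the regions of the other group, a comparison chosen after the data had been seen. Those regions come from the full lists, so that the length of the lists still enters. Of the 1000 peaks with the largest −log10 p, 90.7%, 85.4% and 89.7% in ICM lay in an ESC region, and 83.7%, 73.1% and 82.6% in ESC lay in an ICM region. For the top 39333, the number in the shortest list, these shares were 51.3%, 48.4% and 51.4% in ICM and 53.8%, 50.1% and 54.9% in ESC. The strongest sites of either group were thus largely common to both. Among the top 1000 every ICM share was above every ESC share, whereas for the top 39333 the shares overlapped.

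The same top peaks differed in their relation to morula. Of the top 39333 peaks, 93.3%, 88.9% and 87.2% in ICM and 62.6%, 60.3% and 63.9% in ESC lay in a morula region, and the groups did not overlap (exact permutation test, p = 0.1). Already among the top 1000 the shares were 99.7 ± 0.265% in ICM and 83.1 ± 4.22% in ESC (SD, n = 3; exact permutation test, p = 0.1). In regions of GV oocytes lay 83.8 ± 3.94% of the top 1000 in ICM and 66.7 ± 7.63% in ESC (exact permutation test, p = 0.1), and 34.8 ± 2.06% and 33.8 ± 2.93% of the top 39333 (exact permutation test, p = 0.7). In between, the means were 65.1% and 56.1% of the top 5000, 55.3% and 49.6% of the top 10000 and 45.2% and 41.8% of the top 20000, with overlapping libraries (exact permutation tests, p = 0.2, 0.2 and 0.4). ESC thus held fewer morula sites than ICM at each of these numbers, while for oocyte sites the difference in means was largest among the top 1000 and smallest among the top 39333.

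Merged peaks of the 6 libraries formed 260664 regions, of which 16737 had a peak in all 6, and there the fold enrichment itself was compared. The median fold enrichment at these regions was 5.29, 4.99 and 5.40 in ICM and 4.66, 5.75 and 5.38 in ESC, and the median length covered by peaks 616, 574 and 745 bp against 365, 747 and 618 bp. ESC replicate 1 was the lowest by both measures, and the others were interleaved. Across the 16737 regions, log2 fold enrichment correlated with r between 0.689 and 0.753 for pairs of ICM libraries, between 0.580 and 0.745 for pairs of ESC libraries and between 0.406 and 0.523 for pairs of different groups. These correlations describe sites of the same libraries, whose depth they share.

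With library medians set equal, limma called 1139 (6.81%) of the 16737 regions at a Benjamini-Hochberg adjusted p under 0.05. Of these, 695 were higher in ESC (4.15% of those tested) and 444 higher in ICM (2.65%). The differences were moderate, with a median of 0.73 on the log2 scale for regions higher in ESC and −0.68 for those higher in ICM, and 74 and 21 of them exceeded 1 in size. Counts moved with the libraries used: 1049 and 969 regions were called without ESC replicate 1, and 369 and 181 without ESC replicate 3, 390 and 282 without ESC replicate 2, 432 and 237 without ICM replicate 2 and 383 and 188 without ICM replicate 3, each time higher in ESC and in ICM. Leaving out a library also changes which regions have a peak in all, and thus how many are tested. Without scaling between libraries 220 and 109 were called.

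**Figure D5:**
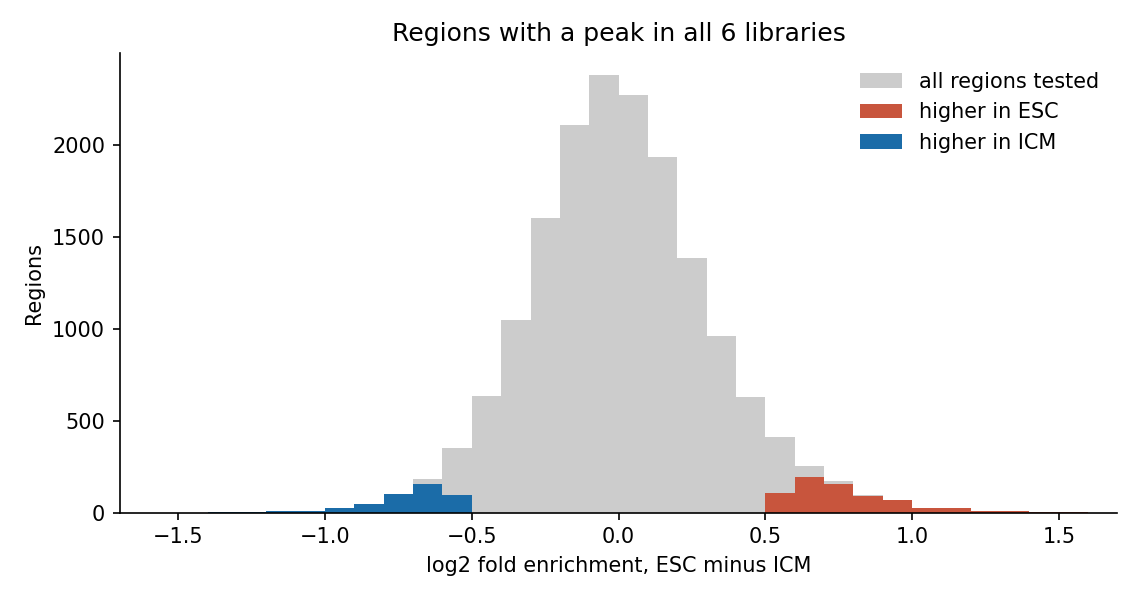
Number of regions with a peak in all 6 libraries (vertical axis) by their difference in log2 fold enrichment, ESC minus ICM, in steps of 0.1; coloured bars are the 695 regions called higher in ESC and the 444 called higher in ICM among 16737 tested. Most shared regions lie near 0, and those called lie beyond 0.51 on either side.

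Morula libraries, which took no part in these calls, differed between the 2 sets. At regions higher in ICM the median fold enrichment was 6.97, 6.81 and 7.44 in ICM, 3.84, 4.84 and 4.32 in ESC and 7.02, 7.48 and 6.90 in the 3 morula libraries. At regions higher in ESC it was 4.34, 3.92 and 4.29 in ICM, 6.25, 8.26 and 7.39 in ESC and 4.74, 5.33 and 4.99 in morula. Over all 16737 regions the morula medians were 5.71, 5.99 and 5.73, so that for either set morula lay nearer to ICM than to ESC. Morula medians leave out regions without a morula peak, and all 3 morula libraries had one at 553 of the 695 regions higher in ESC and 420 of the 444 higher in ICM. A region of GV oocytes met 37.8% of the regions higher in ESC, 52.3% of those higher in ICM and 69.3% of all tested, and a region of the 8-cell stage 59.0%, 76.8% and 85.3%. Shared regions called in either direction were thus open in oocytes and 8-cell embryos less often than shared regions as a whole.

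The largest rise lay at chr4:73577507-73577931, with fold enrichment of 4.14, 3.26 and 3.79 in ICM and 9.24, 12.3 and 12.1 in ESC (log2 difference 1.58 ± 0.15 SE, limma adjusted p = 0.000138). Morula libraries were at 8.02, 5.78 and 6.04 there. The next were at chr12:83084033-83084900 (log2 difference 1.54 ± 0.16 SE), chr6:23727143-23729040 (1.53 ± 0.20), chr28:39312750-39313750 (1.48 ± 0.16) and chr3:52369286-52369669 (1.47 ± 0.16), with limma adjusted p between 0.000138 and 0.000473. At chr28:39312750-39313750 ICM libraries were between 3.35 and 3.39 and ESC libraries between 7.46 and 10.7. At all 5 sites, chosen as the largest rises, the lowest ESC library was above the highest ICM library. With library medians set equal, the groups did not overlap at 685 of the 695 regions called higher in ESC (98.6%). Among all 16737 regions tested they did not overlap, in either direction, at 4447 (26.6%).

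The largest fall lay at chr23:20431203-20432758, with 8.97, 7.55 and 9.54 in ICM and 3.53, 3.60 and 2.85 in ESC (log2 difference −1.39 ± 0.17 SE, limma adjusted p = 0.000311). Next came chr9:73312123-73312671 (−1.37 ± 0.18 SE), chr2:32367421-32368085 (−1.30 ± 0.16), chr8:74335581-74336234 (−1.24 ± 0.18) and chr18:46294022-46294499 (−1.18 ± 0.17), with limma adjusted p of at most 0.000917. At chr2:32367421-32368085 the libraries had 12.1, 9.55 and 9.38 in ICM, 3.38, 4.54 and 4.79 in ESC and 10.3, 13.7 and 11.4 in morula. All 5 met a region of the 8-cell stage and of morula, whereas of the 5 that rose 2 met one of the 8-cell stage and all 5 one of morula.

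Regions with a peak in every library of 1 group and in none of the other were more frequent for ICM, with 21247 against 10350 for ESC. A morula region met 85.1% of the first and 21.1% of the second, an 8-cell region 40.9% and 11.3%, and a region of GV oocytes 6.28% and 4.32%. The requirement of a peak in all 3 libraries falls harder on ESC, where replicate 1 is short, so the numbers themselves are not comparable. Their median mean fold enrichment was 4.59 for ICM and 5.04 for ESC.

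Among regions of ICM alone, the highest was chr3:82118730-82119168, with fold enrichment of 11.9, 11.4 and 10.7 in ICM, no peak in ESC, and 13.3, 14.6 and 13.0 in morula. The next, at chr4:9801393-9801994, had 10.8, 10.9 and 11.4 in ICM and between 11.5 and 12.2 in morula. Both had peaks in all 3 libraries of 8-cell embryos and in none of GV oocytes, 2- or 4-cell embryos. At chr22:10407256-10407700 the ICM libraries had 9.95, 10.7 and 11.5 and no 8-cell library had a peak. At chrX:53971988-53972360 ICM libraries had 9.70, 10.4 and 11.9, above the 3.65 and 4.43 of the 2 morula libraries with a peak, and chr5:40925299-40925657 had 9.50, 10.4 and 11.8. These 5 sites were chosen by their mean in ICM among regions without an ESC peak. Their strength in ICM and absence from ESC lists follow from that choice.

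Among regions of ESC alone, the highest was chr2:42810004-42810408, with 9.45, 14.9 and 13.1 in ESC replicates 1, 2 and 3, no peak in ICM, and 3.80, 4.27 and 4.74 in morula. At chr4:22935433-22935841 ESC libraries had 9.71, 14.8 and 11.9, and 2 morula libraries had a peak of 3.55 and 3.64. All 3 libraries of 8-cell embryos also had a peak at this second site. At the first, 2 libraries of 8-cell embryos and 1 of 4-cell embryos had one. At chr11:40424892-40425269, with 9.02, 14.1 and 12.2, and at chr4:29830121-29830586, with 9.26, 12.6 and 13.2, no library of any embryonic stage or of GV oocytes had a peak. The fifth, chr1:20448147-20448555, had 9.22, 13.0 and 12.4 in ESC and a peak of 4.01 in 1 morula library. At each of the 5 sites ESC replicate 1 had the lowest value of the 3. High values in ESC follow from the choice of these sites by their mean.

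The widest lost and added regions were of moderate height. The widest lost region, chr29:25181706-25186039, spanned 4334 bp with mean fold enrichment of 3.63, 5.26 and 3.08 in ICM, and a peak of 2.89 in ESC replicate 2. The other 4 spanned between 3551 and 3648 bp, at chr11:101822312-101825959, chr13:78203618-78207231, chr10:7046677-7050281 and chr29:50603692-50607242, and 2 of the 5 lost regions had no peak in any ESC library. The lost region on chromosome 13 had peaks of 3.04 and 2.84 in ESC replicates 2 and 3 that did not overlap each other, with a mean of 2.94 against 2.80 in ICM. All 5 had peaks in the 3 morula libraries. The widest added region, chr15:83737718-83742086, spanned 4369 bp with 3.38, 3.26 and 3.34 in ESC and a peak of 2.86 in ICM replicate 2. Of the other 4, between 3109 and 3501 bp wide, 1 lay on an unplaced scaffold and 3 at chr21:21400828-21404135, chr14:13828575-13831689 and chr14:27311961-27315069. The region on chromosome 21 had peaks of 4.06 and 3.90 in ICM replicates 1 and 3 that did not overlap each other, with a mean of 3.98 against 3.79 in ESC, and only chr14:27311961-27315069 had a peak in ESC alone.

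Lost and added regions were spread differently over the genome, which was looked at by chromosome and by window after the data had been seen. The share of the covered length on each of the 29 autosomes and X was compared between libraries, and on 18 of 30 chromosomes (60.0%) the ICM and ESC libraries did not overlap, with ESC higher on 9 and lower on 9. The share on chromosome 19 was 4.07%, 3.17% and 3.58% in ICM and 2.97%, 2.29% and 2.79% in ESC, and on chromosome 25 it was 2.37%, 1.85% and 2.18% against 1.57%, 1.24% and 1.62%. ESC shares were also lower on chromosomes 10, 11, 13, 16, 17, 22 and 23 and higher on 2, 4, 5, 6, 7, 8, 9, 20 and 27. On chromosome 27 they were 1.67%, 1.97% and 1.90% against 1.44%, 1.54% and 1.53% in ICM. Shares of 1 library add up to 100%, so that a lower share on some chromosomes goes with a higher one on others. With equal numbers of top peaks the groups were apart on 13 chromosomes, ESC higher on 7 and lower on 6. The libraries then overlapped on chromosomes 2, 4, 6, 7, 16, 17 and 23, while ESC shares were higher on chromosomes 24 and 28, where the full lists overlapped.

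Chromosome 25 held 995 lost and 387 added regions, chromosome 19 held 1732 and 756 and chromosome 27 held 738 and 981, against 50452 and 45047 in all. These numbers depend on single libraries, since without ESC replicate 2 there were 64415 lost and 13952 added regions in all. The X chromosome took 2.43%, 3.04% and 2.58% of the covered length in ICM and 3.02%, 2.87% and 2.95% in ESC, which overlapped (ratio 1.10, exact permutation test, p = 0.4).

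At a finer scale, lost regions followed kept regions and added regions did not. Over 2639 windows of 1 Mb, the number of lost regions correlated with that of kept regions with r = 0.693, and the number of added regions with r = −0.116, as a description across windows. When the windows were put into 5 groups by their number of kept regions, those with at most 4 held 8.43 lost and 15.2 added regions on average, and those with at least 19 held 29.6 lost and 14.7 added. The 3 groups between held 13.3, 19.1 and 23.7 lost and 18.7, 18.5 and 17.5 added regions. Lost regions thus rose with kept regions from group to group, whereas the means of added regions were lowest in the poorest and the richest group, and single windows varied more. The windows richest in kept regions held 37.2%, 31.3% and 34.4% of the peaks of the ICM libraries and 31.0%, 24.3% and 26.4% of those of ESC, and the poorest held 5.30%, 8.05% and 6.31% against 8.90%, 12.5% and 11.3%. In both the groups did not overlap (exact permutation test, p = 0.1 for each). The windows were sorted by kept regions of these same libraries, so the test is not independent of the sorting. Morula libraries held 28.6%, 27.5% and 30.1% of their peaks in the richest and 10.3%, 10.3% and 9.17% in the poorest windows, within the range of ESC and outside that of ICM. The weak correlation of added with kept regions changed sign without ICM replicate 1 (r = 0.0201) or ICM replicate 3 (r = 0.0187). The median distance to the nearest kept region was 20.6 kb for lost and 36.2 kb for added regions.

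Single windows, picked after their values had been seen, show both patterns. Between 37000001 and 38000000 on chromosome 19 there were 27 kept, 53 lost and 8 added regions, with 87, 72 and 103 peaks in ICM and 23, 52 and 47 in ESC. Between 67000001 and 68000000 on chromosome 7 there were 1 kept, 8 lost and 38 added regions, with 6, 14 and 16 peaks in ICM, 13, 79 and 48 in ESC and 26, 49 and 24 in morula. In the second window the short list of ESC replicate 1 did not exceed those of ICM replicates 2 and 3, and the difference rests on ESC replicates 2 and 3.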

How the data were processed

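The lists came from ATAC-seq of 21 control libraries, 3 replicates per stage, and the members and lists used here were chosen with earlier results of these data known. Per the submitters' processing notes, the authors used BWA 0.7.17 for alignment to ARS-UCD1.2, SAMtools 1.7 for filtering and MACS2 2.1.1 for broad peaks. The deposited fold enrichment is a ratio that the authors computed with MACS2 as pileup over local background, each plus 1, averaged over the peak, which pulls values of shallow libraries toward 1. The deposited −log10 p and −log10 q are likewise means over the peak, which the authors obtained in MACS2 from those tracks. The authors state a q of 0.05, but the lists hold peaks with a mean −log10 q from just above 1, which corresponds to q = 0.1, and why was not tested.

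Read numbers of single libraries were not in the files used here, so a background level was solved from peaks of at most 260 bp, where 3 or more of them matched a whole-number pileup to within 0.0002 in −log10 p. Precision differs with it: ESC replicate 1 has the lowest level of the 6 libraries. Regions needed peaks from 2 replicates and counted as shared from 1 bp. Single values were tested by exact two-sided permutation of the libraries. Fold enrichment at regions with a peak in all 6 libraries was compared on the log2 scale with limma 3.58.1, medians set equal, and Benjamini-Hochberg adjustment over all regions. Python 3.11.15 with numpy 2.4.6, scipy 1.17.1 and matplotlib 3.10.9, and R 4.3.3, were used, and the scripts were tested on simulated data.

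Named regions are the 5 with the largest difference in each direction among called regions, the 5 highest by mean fold enrichment among those with a peak in every library of 1 group and none of the other, and the 5 widest lost and added regions. The part of this rule on genes, POU5F1, SOX2 and NANOG included, was not run, because no annotation of ARS-UCD1.2 was supplied. Alternatives were stricter peaks, equal numbers of top peaks, autosomes, 50% overlap, regions from any or all replicates, other scalings, leaving out each library and a block by replicate number.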

Additional observations from a re-analysis of the deposited data

How the results depend on the processing

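The lists differ in depth and length, and both counts and contrasts moved when they were made equally long. The difference in the Jaccard index (0.123 to 0.222, and 0.309 for the overlap coefficient, with p between 0.1 and 0.25), the excess of ICM regions missing in ESC libraries (29.7 to 46.5 points, p between 0.1 and 0.25) and the narrower peaks of ESC (ratio 0.816 to 0.897, p between 0.1 and 0.3) kept their direction throughout. With equal numbers of top peaks the width ratio was 0.824 with an exact permutation p = 0.3, and the excess of ESC regions missing in ICM libraries was 36.7 points with p = 0.1, against 25.3 points with p = 0.4 (p between 0.1 and 0.7 over all alternatives). Planned results on promoter windows and motifs were not run, since they need a genome and annotation of ARS-UCD1.2. Where a library was left out of the held-out comparison, regions of that group came from the single other library. Alternatives for retention by first stage and by oocyte state, for windows and for chromosomes, leaving out libraries for the shares of kept, lost and added regions open at other stages, and the fold enrichment rebuilt from the pileup, were chosen after seeing the data. Beyond what the alternatives change by construction (fewer peaks, fewer libraries or stricter regions), the cause was not tested.

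With equal numbers of top peaks there were 14218 kept, 21993 lost and 21186 added regions, 133 shared regions were called higher in ESC and 74 higher in ICM, and the ratio of median fold enrichment turned to 0.974. With only peaks whose mean −log10 q reached 3 there were 18311 kept, 32270 lost and 22574 added regions, 207 and 82 calls, and 67.5% of the 2-cell class kept. With a fold enrichment of at least 3 the ratio of medians turned to 0.993 (over all alternatives 0.974 to 1.05). Without scaling between libraries 220 and 109 regions were called. On autosomes only, 93.8% of the 2-cell class was kept.

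With regions from any replicate there were 62887 kept, 93041 lost and 105350 added regions, and 37.4% of ESC regions were kept. With regions from all 3 replicates there were 16739 kept and 16825 added regions, 49.8% of ESC regions, 65.5% of the 2-cell, 15.4% of the morula and 10.8% of the ICM class and 16.9% of regions not open in oocytes were kept, and peaks of GV, 8-cell and morula libraries lay at 68.8%, 84.4% and 96.6% of kept, 17.1%, 49.8% and 86.3% of lost and 11.7%, 22.5% and 37.9% of added regions, and those of 4-cell libraries at 10.7% of lost and 6.43% of added regions. When sharing required 50% of the region to overlap, 37.0% of ESC regions were kept, GV, 8-cell and morula libraries had peaks at 37.7%, 60.1% and 80.2% of kept and 4.75%, 26.1% and 58.3% of lost regions, GV and 8-cell libraries at 4.19% and 9.68% of added regions, and the correlation of added with kept regions over windows turned to 0.0246. With the same rule 4-cell libraries had peaks at 21.2% of kept, 2.74% of lost and 2.24% of added regions.

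Leaving out 1 library at a time gave 19981 to 32842 kept, 30662 to 64415 lost and 13952 to 52672 added regions, 23.7% to 46.2% of ICM and 33.3% to 58.9% of ESC regions kept, 369 to 1049 regions called higher in ESC and 181 to 969 higher in ICM. The ratio of ESC to ICM ranged from 0.600 to 1.17 for covered length, 0.705 to 1.23 for the number of peaks and 0.983 to 1.05 for median fold enrichment. Shares kept ranged from 67.9% to 85.1% for the 2-cell class, 67.8% to 91.1% for the 4-cell class, 24.2% to 47.6% for the 8-cell class, 11.3% to 25.8% for the morula class, 6.85% to 17.5% for the ICM class, 59.0% to 86.4% for regions open in oocytes and 11.9% to 28.2% for the others. GV libraries had peaks at 52.1% to 61.9% of kept, 8.25% to 14.4% of lost and 6.87% to 9.79% of added regions, 8-cell libraries at 72.0% to 78.7%, 38.2% to 42.8% and 14.7% to 19.7%, 4-cell libraries at 5.03% to 8.83% of lost and morula libraries at 74.0% to 83.3% of lost regions. For added regions the share with a peak in 4-cell libraries ranged from 3.65% to 5.38%. Over windows the correlation with kept regions ranged from −0.130 to 0.0201 for added and from 0.610 to 0.714 for lost regions.

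Replicate numbers did not pair the libraries: deviations from the group mean at shared regions correlated by −0.0492, −0.0981 and −0.0124 for numbers 1, 2 and 3, and no library correlated best with its own number. A replicate block gave 637 and 374 calls, against 695 and 444, and changed no direction. Its exact tests cannot go below p = 0.25.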
